A study of Mus musculus with 6 samples.

Results

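Band 3, glycophorin C and the blood group proteins of the red cell surface were read here through 9 genes, Slc4a1, Gypc, Rhag, Rhd, Kel, Xk, Ermap, Icam4 and Aqp1. Every probe set that the array annotation assigns to 1 of these symbols alone was taken, which gave 12 of the 45037 probe sets on the array and 9 of the 18193 genes it names. Slc4a1 had 3 probe sets, Xk had 2 and each of the other genes had 1.

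The samples were erythroid progenitors sorted from bone marrow as cells with both the transferrin receptor, CD71, and the erythroid antigen Ter119 at their surface, and the RNA of each mouse was read on its own Affymetrix array. The 3 knockout mice carried Bcl11a fl/fl and EpoR-Cre+, that is, floxed alleles of Bcl11a and a Cre recombinase driven from the erythropoietin receptor gene, which is active in the erythroid lineage. The 3 control mice were Bcl11a +/+. All 6 were females aged 6 weeks, and BCL11A is a transcriptional repressor best known for silencing embryonic and fetal globin genes. The labels name Cre for the knockout mice alone and give no strain background, so an effect of Cre or of background cannot be told apart from that of Bcl11a.

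The red cell membrane is held to its spectrin skeleton at separate kinds of anchor. At the first, band 3, the chloride-bicarbonate exchanger that lets red cells carry carbon dioxide, is tied to ankyrin and gathers the Rh proteins and their associates around it. At the other, glycophorin C is bound by protein 4.1. Many of these surface proteins carry the antigens of human blood groups, and most are made in quantity only as erythroblasts mature.

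RefSeq promoters on GRCm38.p6 were matched by symbol for 7 of the 9 members, all but Slc4a1 and Gypc. The 4 sequences below were chosen to show the members with the largest changes, Rhag and Kel, and those whose promoter lacked GATAA, Aqp1 and Xk. They are the bases up to 120 before the RefSeq start, 5′ to 3′ on the gene's own strand, and capitals mark GATAA, the core of the GATA factor motif, and CACCC, the core of the KLF1 motif, or their reverse complements TTATC and GGGTG. The Rhag sequence ends at the base 21 before its start, at chr17:40811029-40811128 on the plus strand. Its last 30 bases, with the marked TTATC, lie inside the RefSeq gene span. So do the last 9 bases of the Kel sequence, with the marked CACCC. The promoter start used for Rhag and Kel thus lies within the span of the gene. That of Ermap, whose sequence is not shown, does so too. The others are chr6:41704326-41704445 on the minus strand for Kel, chr6:55336179-55336298 on the plus strand for Aqp1 and chrX:9272664-9272783 on the plus strand for Xk.
Rhag: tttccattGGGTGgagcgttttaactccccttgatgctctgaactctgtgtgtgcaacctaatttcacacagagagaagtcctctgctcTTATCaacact
Kel: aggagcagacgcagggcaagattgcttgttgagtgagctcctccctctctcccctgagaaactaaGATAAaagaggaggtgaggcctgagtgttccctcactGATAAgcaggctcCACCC
Aqp1: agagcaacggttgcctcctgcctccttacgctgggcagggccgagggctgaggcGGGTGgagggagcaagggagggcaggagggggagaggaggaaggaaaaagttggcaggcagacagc
Xk: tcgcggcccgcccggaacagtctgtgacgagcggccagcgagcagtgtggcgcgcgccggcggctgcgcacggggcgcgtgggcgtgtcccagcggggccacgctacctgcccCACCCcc

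Searched on both strands of the 250 bases before the start, GATAA lay in 5 of the 7 member promoters, those of Rhag, Rhd, Kel, Ermap and Icam4, and in 23% of 27025 promoters of all genes. The first base of the match lay between 67 and 18 bases before the start, and Kel held 2 matches. CACCC lay in all 7 and in 51.3% of all promoters. The E-box CANNTG lay in 3 of the 7, against 66% of all, and TGACCA, the motif bound by BCL11A, in 0 of the 7, against 11.5% of all. The Xk window was 77.2% G and C, against a median of 52% over all promoters and 39.2% for Rhag. These are matches of letters and no evidence of binding. In the member promoters no match of one motif overlapped a match of another.

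The arrays were even in level, with median intensities of 67.6 to 68.4 in knockout mice and 67.5 to 70.9 in control mice, and no array was normalized again. Across all probe sets 66 passed limma's test at an adjusted p threshold of 0.05, or 0.147%. Of these, 63 rose, which is 0.140% of those tested, and 3 fell. Bcl11a itself did not pass in any of 7 probe sets, and its brightest had 1298 ± 115 in knockout mice and 1492 ± 53.9 in control mice (SD, n = 3 each), with a log2 change of -0.20. The probe sets disagreed in direction, since 4 were lower in all knockout mice, with changes of -0.17 to -0.40, 2 were higher in all knockout mice, with changes of 0.23 and 0.32, and 1 overlapped. The probes were not placed against the deleted exons, so they check no genotype label. Of the erythroid identity markers, Tfrc, which encodes CD71, averaged 18544 ± 1455 and 14288 ± 1433, and Klf1, the master erythroid activator, 7324 ± 749 and 4732 ± 1110, in knockout and control mice in that order. Yet the brightest probe set on all 6 arrays was that of S100a8, a neutrophil protein, and even the dimmest of 11 neutrophil markers by its mean over all arrays, Elane, had 4353 ± 198 in knockout mice and 4282 ± 233 in control mice.

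None of the 12 member probe sets passed the test, although in 8 of the 9 genes the lowest knockout mouse lay above the highest control mouse. Over all genes, each read by its brightest probe set, 12.3% were separated in this direction. At an unadjusted p under 0.05, 8 of the 12 probe sets were higher, against 7.21% of all probe sets. The median log2 change of the 9 genes was 0.61, against -0.0012 over all genes, and 8 of 9 lay above 0, against 49.8% of all genes. With variances moderated along an intensity trend and robustly, 6 of the 12 probe sets passed and all 6 rose, while that fit called 2.68% of all probe sets as risen. These 6 read Rhag, Kel, Gypc, Ermap, Icam4 and, by its second brightest probe set, Slc4a1. The smallest two-sided exact permutation p that 3 against 3 mice allow is 0.1, and a gene whose groups do not overlap reaches it.

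**Figure D1:**
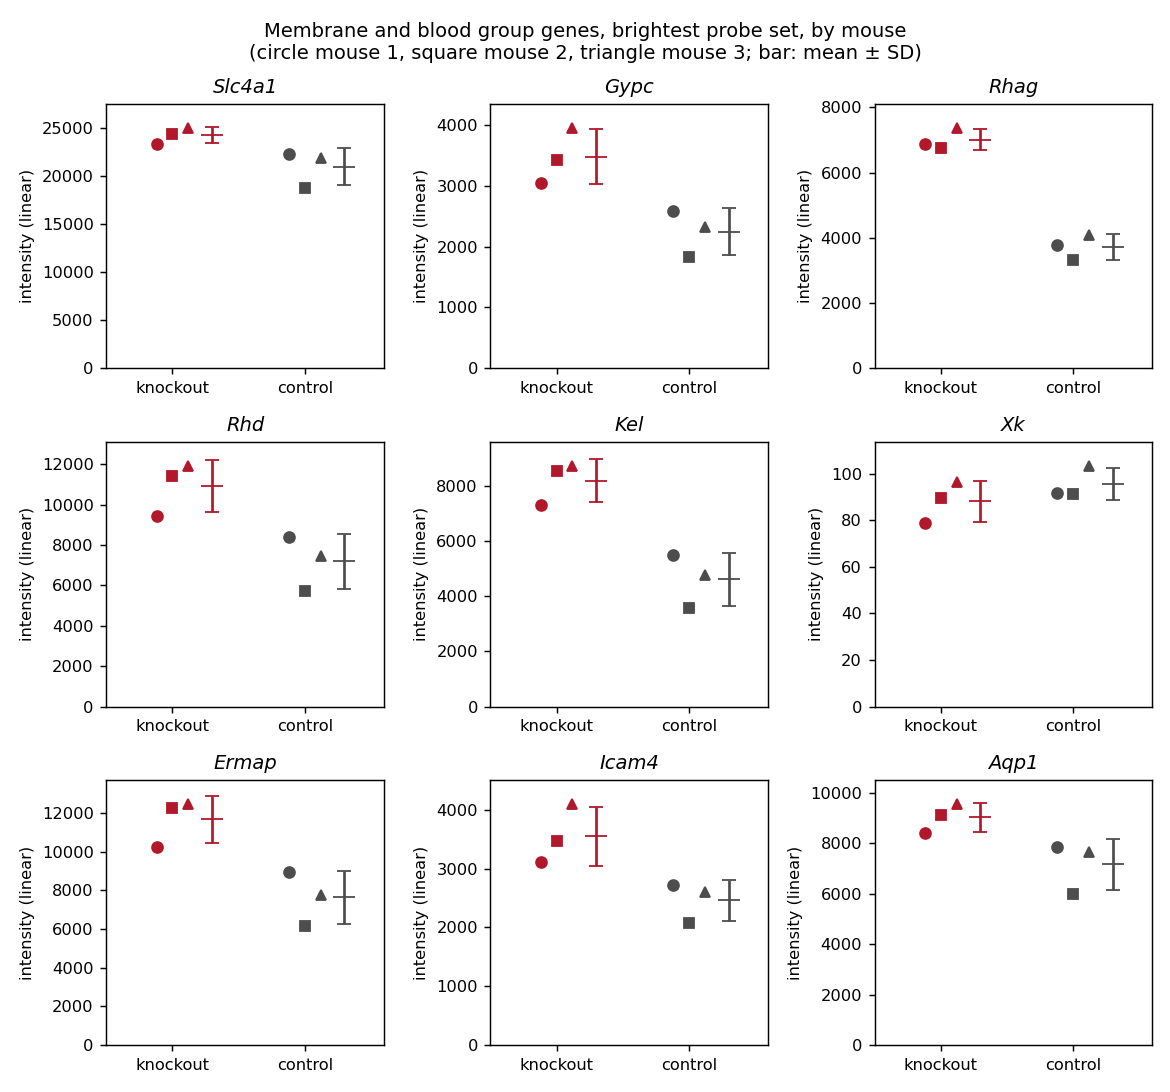
Intensity of each gene's brightest probe set on a linear axis that starts at 0, with a point per mouse and a bar for the mean ± SD of 3 mice. The 3 knockout mice lie above the 3 control mice in every panel but that of Xk, and control mouse 2 is the lowest of the controls in all 9 panels.

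Band 3 was among the brightest genes of these cells and differed little. By its brightest probe set Slc4a1 had intensities of 23335, 24366 and 25014 in knockout mice 1 to 3, against 22317, 18743 and 21872 in control mice 1 to 3. The groups did not overlap, but the highest control value was close to the lowest knockout value. The log2 change was 0.21 ± 0.11 (SE, limma adjusted p = 0.494), with a 95% interval from -0.054 to 0.48. A second probe set, named with the suffix x_at for the type whose probes can also match other transcripts, had 20585, 20132 and 21155 in knockout mice against 17533, 15227 and 17547 in control mice. Its log2 change was 0.30 ± 0.10 (limma adjusted p = 0.333; adjusted p = 0.0160 with the intensity trend), and its groups did not overlap. A much dimmer probe set had 499 ± 13.2 and 466 ± 57.6 (SD, n = 3 each) in knockout and control mice, overlapping groups and a log2 change of 0.10. The brighter probe sets stood at percentiles 99.9 and 99.8 of all probe sets, and whether they were saturated was not tested.

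Gypc encodes glycophorin C, the anchor for protein 4.1 and carrier of the human Gerbich antigens. It had intensities of 3048, 3428 and 3952 in knockout mice, against 2590, 1830 and 2323 in control mice. Every knockout value was above every control value. The log2 change was 0.63 ± 0.17 (SE, limma adjusted p = 0.240; adjusted p = 0.0176 with the intensity trend), and the ratio of mean intensities was 1.55.

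The Rh proteins form a complex in the membrane together with band 3. Rhag encodes the Rh-associated glycoprotein, which conducts ammonia and is needed for Rh proteins to reach the surface. It had intensities of 6889, 6763 and 7377 in knockout mice, against 3772, 3312 and 4103 in control mice. This was the widest separation of the members, since even the lowest knockout mouse lay far above the highest control mouse. The ratio of means was 1.88 and the log2 change was 0.91 ± 0.12, with a 95% interval from 0.63 to 1.19 (limma adjusted p = 0.0736). It stood at percentile 99.4 of the changes of all genes.

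The call on Rhag depended on how variances and probe sets were handled. It passed with the intensity trend (adjusted p = 3.08e-05), with a pseudocount of 64 (adjusted p = 0.00653), in the brighter 50% of probe sets (adjusted p = 0.00698), and where each gene was fitted once, by its brightest probe set (adjusted p = 0.0422) or by the mean of its probe sets (adjusted p = 0.0376). It did not pass with quantile normalization (adjusted p = 0.0893) or with a pseudocount of 1 (adjusted p = 0.148). Nor did it pass on leaving out any 1 mouse (adjusted p = 0.164 to 0.307), while the log2 change then stayed between 0.83 and 0.98.

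Rhd encodes the Rh protein that carries the D antigen in humans. It had intensities of 9445, 11403 and 11916 in knockout mice, against 8424, 5716 and 7439 in control mice. The groups did not overlap, although knockout mouse 1 lay nearer to control mouse 1 than to the other knockout mice. The log2 change was 0.61 ± 0.18 (limma adjusted p = 0.266), and it did not pass with the intensity trend either (adjusted p = 0.0582).

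Icam4 encodes the Landsteiner-Wiener glycoprotein, an adhesion molecule of the Rh complex that binds integrins. It had intensities of 3105, 3461 and 4095 in knockout mice, against 2724, 2068 and 2597 in control mice, again without overlap. The log2 change was 0.53 ± 0.16 (limma adjusted p = 0.287; adjusted p = 0.0284 with the intensity trend).

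Kel and Xk encode proteins that are joined by a disulfide bond in the human red cell membrane, and only the Kel values separated the groups. Kel, a zinc endopeptidase that activates endothelin 3, had intensities of 7304, 8543 and 8718 in knockout mice, against 5480, 3565 and 4773 in control mice. All knockout values lay above all control values, with a ratio of means of 1.78 and a log2 change of 0.85 ± 0.18 (limma adjusted p = 0.180). Kel passed with the intensity trend (adjusted p = 0.0132), with a pseudocount of 64 (adjusted p = 0.0493) and in the brighter 50% of probe sets (adjusted p = 0.0366). It did not pass with quantile normalization (adjusted p = 0.193), with a pseudocount of 1 (adjusted p = 0.268) or on leaving out any 1 mouse (adjusted p = 0.199 to 0.413).

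Xk, whose loss in humans gives McLeod syndrome, had intensities of 78.8, 89.6 and 96.3 in knockout mice, against 91.9, 91.3 and 103 in control mice. The groups overlapped, and the log2 change was -0.10 ± 0.11 with a 95% interval from -0.37 to 0.17 (limma adjusted p = 0.768). Its other probe set had 62.3 ± 4.74 and 55.8 ± 4.69 in knockout and control mice and a log2 change of 0.13, of the opposite sign, also with overlapping groups. The mean of both probe sets gave a change of 0.014. Xk stood at percentiles 55.6 and 47.6 of all probe sets. The deposited table has no detection calls, so a level this low cannot be told from background, and no change of Xk was detectable.

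Ermap encodes an immunoglobulin-like membrane protein of erythroid cells that carries the human Scianna antigens. It had intensities of 10261, 12277 and 12449 in knockout mice, against 8935, 6172 and 7776 in control mice. The groups did not overlap, and the log2 change was 0.62 ± 0.17 (limma adjusted p = 0.241; adjusted p = 0.0284 with the intensity trend).

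Aqp1 encodes the water channel of the red cell, which carries the human Colton antigens and is also made by endothelial cells. It had intensities of 8417, 9134 and 9548 in knockout mice, against 7857, 5993 and 7646 in control mice. The groups did not overlap but came close. The log2 change was 0.34 ± 0.14 (limma adjusted p = 0.392; adjusted p = 0.0772 with the intensity trend). The 8 endothelial markers measured, among them Cdh5 and Pecam1, summed to 555 to 683 in knockout mice and 480 to 620 in control mice, with 3 of 8 log2 changes above 0 and a median of -0.15. Cdh5 averaged 197 ± 82.4 in knockout mice and 154 ± 12.5 in control mice, while Pecam1 averaged 105 ± 17.7 and 131 ± 28.6, and both overlapped.

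**Figure D2:**
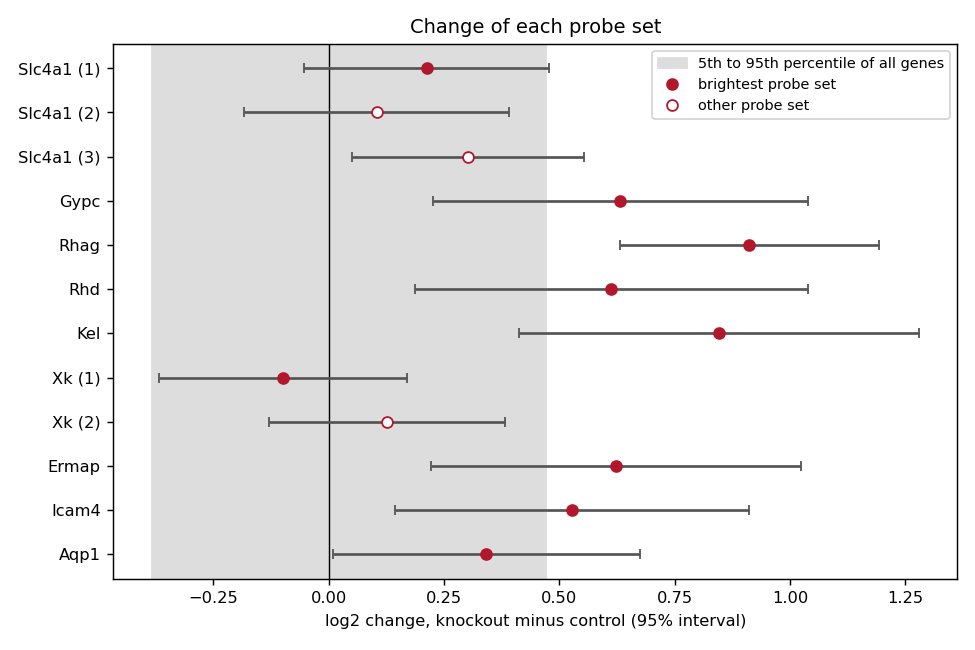
Fitted log2 change, knockout minus control, of the 12 probe sets with 95% intervals from limma, filled for the brightest probe set of a gene and open for the others. Rhag and Kel lie farthest to the right at 0.91 and 0.85, Xk straddles 0, and the grey band from -0.38 to 0.47 holds the changes between the 5th and the 95th percentile of all genes.

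The fitted changes of the members differed in size. Within each mouse the log2 level of one member was taken minus that of another for 5 pairs. The pairs were not among the planned comparisons. Most of them set Rhag or Kel, the members with the largest changes, against a member with a smaller one. A difference between the groups was thus largely set by that choice. The products of a pair are partners in the membrane or, for Slc4a1 and Aqp1, an exchanger and a water channel that are both abundant. The Rhag minus Slc4a1 difference was -1.79 ± 0.051 in knockout mice and -2.49 ± 0.075 in control mice (SD, n = 3 each), so Rhag stood higher relative to band 3 by 0.70 in the knockout. Relative to Rhd it stood higher by 0.30 and relative to Icam4 by 0.39. The Rhag minus Rhd difference was -0.63 ± 0.16 in knockout mice and -0.93 ± 0.20 in control mice. Its groups came close, with -0.75 in knockout mouse 2 and -0.78 in control mouse 2. The difference of Slc4a1 against Aqp1 was -0.13, and both pairs with Slc4a1 rest on a probe set near the top of the scale whose saturation was not tested. The pair of Kel and Xk is not read, because the level of Xk cannot be told from background. In each of the 5 pairs, that of Kel and Xk included, the groups did not overlap. The exact two-sided permutation p was 0.1, the smallest possible, before and after Benjamini-Hochberg adjustment over the 5. Only unequal change can be read from such a difference.

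The same mice were high or low for nearly every member. Knockout mouse 3 was the highest of the knockout mice for 9 of 9 genes, and knockout mouse 1 the lowest for 8, the exception being Rhag. Control mouse 2 was the lowest of the controls for 9 of 9, and control mouse 1 the highest for 7. These counts include Xk, whose level cannot be told from background. How often all genes take this order of mice was not counted. Without control mouse 2 the median change of the 9 genes was 0.46, that of Rhag 0.83, that of Kel 0.67 and that of Aqp1 0.22. The change of Slc4a1 was then 0.13, against 0.21 with all mice.

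Markers of erythroid identity, a list of 10 genes of which 9 were measured, followed the same order of mice. Their mean log2 level, set against the control mean, was 0.26, 0.39 and 0.49 in knockout mice 1 to 3 and 0.19, -0.24 and 0.052 in control mice 1 to 3. None of the 9 passed, and their median log2 change was 0.43, with 7 of 9 higher in all knockout mice, against 12.3% of all genes. Nfe2, Gata1, Trim10 and Klf1 had log2 changes of 0.56, 0.70, 0.58 and 0.65. Epor and Alas2, the erythropoietin receptor and the first enzyme of erythroid heme synthesis, had -0.14 and -0.060.

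Measured against the mean of these 9 markers in the same mouse, a comparison chosen after the data were seen, the members differed in size and sign. Rhag stood 0.53 higher in the knockout, Kel 0.47, Gypc 0.25, Ermap 0.24, Rhd 0.23 and Icam4 0.15, each without overlap between the groups. The size of these differences depends on the markers averaged. The mean includes Epor and Alas2, whose changes were below 0, and would have risen more in the knockout without them. The differences above 0 would then have been smaller, and by how much was not tested. Alas2 also stood at percentile 100 of all probe sets, and whether it was saturated was not tested. Aqp1 had a difference of -0.037 with overlapping groups, and Slc4a1, read by the same very bright probe set, one of -0.17 without overlap. No value is read for Xk, whose level cannot be told from background. Over the 9 genes, Xk included, the exact permutation p was 0.1 for 8 and 0.4 for Aqp1, and after Benjamini-Hochberg adjustment the values were 0.113 and 0.4.

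The summed markers of 4 other cell types also separated the groups, lower in all knockout mice, and their part in the members' changes was not tested. None of these marker genes passed. All 9 markers of early progenitors had log2 changes below 0, with a median of -0.30, and summed to 7140 to 8907 in knockout mice and 10680 to 10807 in control mice. Myb, a factor of proliferating progenitors, had a change of -0.42, Cdk6 one of -0.36 and Cd34 one of -0.51. All 9 measured pre-B cell markers were below 0 as well, with a median of -0.37 and sums of 11528 to 15687 in knockout mice and 16401 to 19128 in control mice. Only 3 of the 9 were lower in every knockout mouse. By the median log2 level of the list, set against the control mean, the groups overlapped, with -0.078 in knockout mouse 2 and -0.19 in control mouse 1. Igll1 and Vpreb1, the surrogate light chain genes, had -1.31 and -1.19.

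The 11 neutrophil markers summed to 202122 to 210300 in knockout mice and 218865 to 220550 in control mice, with 10 of 11 changes below 0 and a median of -0.089. Of the 11, 7 were lower in every knockout mouse. The 4 basophil and mast cell markers had a median of -0.35, with sums of 3727 to 5287 in knockout mice and 5802 to 6174 in control mice. Of the 4, 2 were lower in every knockout mouse. Macrophage markers had a median of 0.041 and sums of 10433 to 11521 and 9463 to 10647, and megakaryocyte markers a median of 0.19 and sums of 1666 to 2726 and 1815 to 2271, in knockout and control mice in that order. No measured marker of these lists, or of the endothelial one, had on any array the value of exactly 1 at which 746 of all genes stood at least once. In sorted bulk samples a lower number of such cells and less RNA per cell cannot be told apart, nor can a higher share of erythroid cells and more RNA of these genes per erythroid cell.

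**Figure D3:**
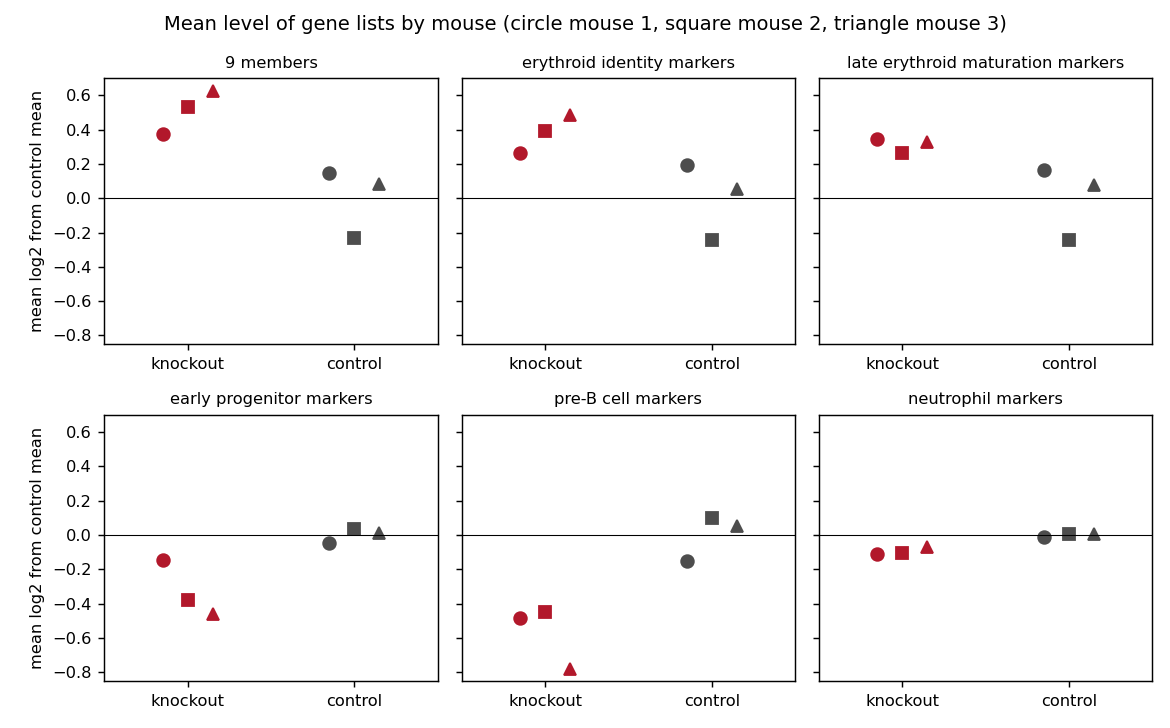
Mean log2 level of the 9 members and of 5 marker lists in each mouse, set against the mean of the controls, with a point per mouse. The members and the erythroid identity markers are ordered alike among the mice, and the early progenitor, pre-B and neutrophil markers lie lower in all 3 knockout mice than in the controls.

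Late maturation markers had changes in the same direction with a smaller median. All 11 measured had log2 changes above 0, none passed, and the median was 0.15. Ypel4 had 0.95, Tspo2, a cholesterol-binding protein of late erythroblasts, 0.86 and Xpo7, a nuclear exporter of terminal maturation, 0.56. Of 11 erythroid transcription factors none passed, 10 had changes above 0 and the median was 0.65, with Tal1 at 0.91, Cbfa2t3 at 0.78 and Zfpm1 at 0.65. Gata1, Klf1 and Nfe2 stand both in this list and in that of erythroid identity.

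Among 11 measured partners of band 3 and the Rh complex, 1 rose, 0 fell and 10 did not pass, with a median log2 change of 0.33. Add2, beta adducin of the spectrin-actin junctions, rose to 2859 ± 326 in knockout mice, against 898 ± 187 in control mice (SD, n = 3 each), a log2 change of 1.67 ± 0.18 (limma adjusted p = 0.0407). It no longer passed when any single mouse was left out (adjusted p = 0.0609 to 0.237) or with quantile normalization (adjusted p = 0.0534). The same held with a pseudocount of 1 (adjusted p = 0.114) and with a replicate block (adjusted p = 0.413). Epb42, protein 4.2, which binds band 3 and ankyrin, had 7329 ± 410 and 4379 ± 716 and a log2 change of 0.75 (limma adjusted p = 0.158). Ank1, the ankyrin that ties band 3 to spectrin, had a change of 0.65, Dmtn, an actin-bundling protein, 0.67, and Cd47, which lies in the Rh complex, 0.29. All 5 had non-overlapping groups with the knockout higher, as had 6 of the 11 genes of the list, against 12.3% of all genes. These 5 are the ones with the smallest p.

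Of 27 other genes behind human blood group systems none passed, 18 had log2 changes above 0 and 9 below, and the median was 0.13. Piezo1, a mechanosensitive channel, had 674 ± 73.1 in knockout mice and 357 ± 26.5 in control mice, a change of 0.89 (limma adjusted p = 0.0812). Abcb6, a porphyrin transporter, had a change of 0.84, Ackr1, the Duffy chemokine receptor, 0.78 and Smim1, of the Vel blood group, 0.61. These 4, which had the smallest p of the list, were higher in every knockout mouse. Over the list 8 of 27 genes were separated in this direction, against 12.3% of all genes. Another 4 were lower in every knockout mouse, as were 1680 of all 18193 genes.

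Of 12 measured ion and solute transporters of red cells, 1 rose, 0 fell and 11 did not pass, with a median log2 change of 0.48. Slc30a1, the zinc exporter, rose to 2001 ± 186 in knockout mice, against 343 ± 70.5 in control mice, a change of 2.50 ± 0.17 (limma adjusted p = 0.0048). It missed the threshold without knockout mouse 1 (adjusted p = 0.0555) and with a replicate block (adjusted p = 0.121). Slc6a9, a glycine transporter, had a change of 0.89, Slc43a1, an amino acid transporter, 0.74, Aqp9, an aquaglyceroporin, 0.73, and Slc16a1, a lactate transporter, 0.52, none of which passed.

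Paralogs of the members, mostly used in other tissues, had no common direction. Of 35 measured none passed, 15 had log2 changes above 0 and 20 below, and the median was -0.011. In 4, or 11.4%, every knockout value exceeded every control value, near the 12.3% of all genes. Aqp9 had the smallest p of them. Aqp11 had 69.9 ± 1.51 in knockout mice and 44.4 ± 9.34 in control mice, Aqp8 29.5 ± 2.12 and 14.1 ± 8.44, and Ecel1, a relative of Kel, 4.17 ± 0.854 and 13.9 ± 5.47. The last 3 lie at low intensities, and no difference between the lists was tested.

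**Figure D4:**
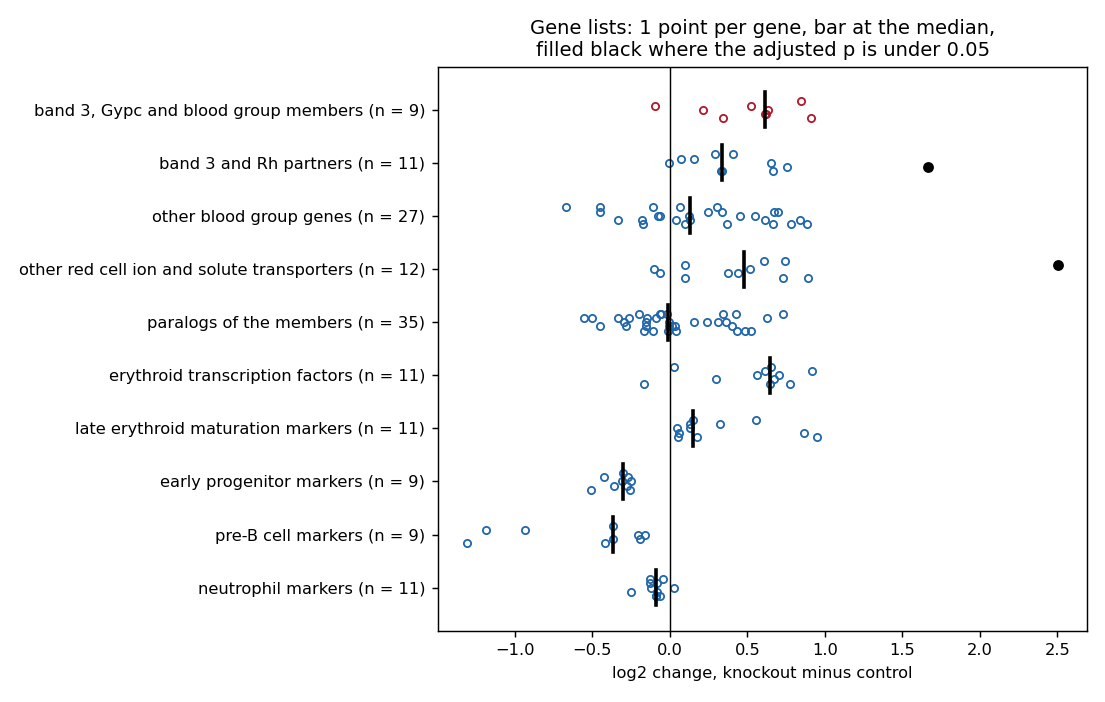
Log2 change, knockout minus control, of each measured gene in 10 lists, with a bar at the list's median and a filled black point where the adjusted p was under 0.05. The members have a median of 0.61 and the erythroid transcription factors one of 0.65, the paralogs centre on -0.011, and the only filled points are Add2 at 1.67 and Slc30a1 at 2.50.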

How the data were processed

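The authors deposited 1 table of intensities on a linear scale for 3 knockout and 3 control arrays; per the labels' protocols, Trizol RNA was labelled with biotin for Affymetrix arrays. Neither the labels nor the table name the summarising software, background correction or scaling. Array precision is limited by the number of mice. Of 45037 probe sets, 34945 had 1 gene symbol, 932 several and 9160 none, and symbols were updated through Entrez IDs to RefSeq (GRCm38.p6). Each gene was read by the brightest of its single-symbol probe sets. Values became log2(intensity + 16), which understates changes of dim probe sets. Log2 medians and interquartile ranges differed by at most 0.0567 and 0.0699, below the 0.1 set for renormalizing. All probe sets were fitted with limma 3.58.1 in R 4.3.3 (no trend), with Benjamini-Hochberg adjustment over all of them and a threshold of 0.05. The fit was tested on simulated data. The genes named are the 9 members and, from each list, those that passed and up to 4 others by p. Tfrc, Epor, Alas2, S100a8, Elane and Slc4a8 were named after their values were seen. The members and lists were chosen with earlier results of these data known. Alternatives were pseudocounts of 1 and 64, quantile normalization, centring on medians, 2 filters on dim probe sets, trended and robust moderation, a replicate block, 1 value per gene and leaving out each mouse.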

Additional observations from a re-analysis of the deposited data

How the results depend on the processing

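The median log2 change of the 9 members stayed between 0.46 and 0.74 under all alternatives, with the lowest value without control mouse 2. The number of member probe sets that passed was 0 under quantile normalization, median centring, a pseudocount of 1, the replicate block, the removal of probe sets with a value of exactly 1 and the omission of any mouse. It was 2 with a pseudocount of 64, 2 in the brighter 50% of probe sets, which leaves out the dimmer of the 2 Xk probe sets, 6 with the intensity trend and robust moderation, and 1 with 1 probe set per gene, where fewer tests are adjusted for. The number of all probe sets that passed was 66, and 38 with a pseudocount of 1, 558 with a pseudocount of 64, 853 in the brighter 50%, 1445 with the trend and robust moderation, and 27 to 41 on leaving out 1 mouse. The cause of these differences was not tested. No sign of pairing by mouse number was seen, though such values cannot exclude it. The deviations of same-numbered mice from their group means correlated at -0.0345, -0.0141 and -0.0402, and those of other pairs at -0.0068 to 0.0402. With the replicate block 14 probe sets passed, with the median of the members at 0.61. The change of Xk turned to 0.014 when its probe sets were averaged, and no other member changed sign. The low level of Xk, without detection calls, limits what can be seen of it.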

Other observations

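Slc4a8, a sodium-driven relative of band 3 picked out after its values were seen, had 1 probe set at percentile 99.9 of all probe sets, with 20143 ± 974 in knockout mice and 20999 ± 774 in control mice (SD, n = 3 each; log2 change -0.060, limma adjusted p = 0.850). Its other 4 probe sets stood at percentiles 1.46 to 33.5, and none of the 5 passed. Which transcript the bright probe set reads was not tested.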
